A study of Mus musculus with 14 samples.

Results

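The 7 pools of medial vestibular nucleus neurons in this series were set against each other by their level of Scn4b, the gene of the sodium channel beta-4 subunit. Pools whose mean log2 signal of Scn4b was 7 or more form the Scn4b-high set, which holds E1, E2, I1a and I1b and 8 arrays. Pools under 5 form the Scn4b-low set, which holds I2, I3a and I3b and 6 arrays, so that all 14 arrays of the series enter the comparison. The medial vestibular nucleus is a brainstem nucleus that receives the head motion signals of the inner ear and drives eye movements and posture. Its neurons were taken one by one, their amplified cDNA was used to assign each cell to a type, and the cDNA of 1 type was then combined and hybridised to 2 Affymetrix mouse expression arrays. E stands for excitatory and I for inhibitory types, an eighth type (E3) is not analysed here, and how many cells each pool holds is not given.

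Every pool carries the same label for its mice: the YFP-16, GIN and GlyT2-13 reporter lines on a C57BL/6 background, aged 24 to 32 days, with brainstem as the tissue. In the YFP-16 line, regulatory sequence of Thy1 drives the fluorescent protein, in GIN that of Gad1, and in GlyT2-13 that of the glycine transporter gene Slc6a5. Which line each cell came from is not given, and a pool may mix cells of several mice. The cell types had been defined partly by transmitter genes and ion channels of the same single cells, so these genes are not independent of the types. The 2 arrays of a pool are technical, and the pool was the replicate (4 against 3). All 3 Scn4b-low pools are inhibitory and both excitatory pools are Scn4b-high, which mixes transmitter class into the comparison. Class markers did not follow the labels cleanly: the excitatory marker Slc17a6 read 8.60 and 10.48 in I1a and I1b, and the inhibitory marker Gad1 read 7.80 and 6.80 in E1 and E2, above the floor of the values.

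Voltage-gated sodium channels open the upstroke of the action potential, and their pore-forming alpha subunits are joined by beta subunits. The beta-4 subunit is known for its part in resurgent sodium current, a brief inward current on repolarisation that favours rapid repetitive firing, and vestibular nucleus neurons include cells that fire at sustained high rates. Fast potassium channels of the Kv1 and Kv3 families, large neurofilament-rich axons and fast release proteins are features that are often described together in such neurons.

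Scn4b itself chose the sets and is given as a description with no test. Its log2 signal was 10.15, 9.62, 7.45 and 9.75 in the E1, E2, I1a and I1b pools, against 2.84, 4.22 and 2.82 in I2, I3a and I3b. The mean was 9.24 ± 1.22 in the Scn4b-high pools (SD, n = 4) and 3.29 ± 0.80 in the Scn4b-low pools (SD, n = 3), a difference of 5.95 log2 units. The pool nearest to the rule from inside was I1a and from outside I3a, 3.23 log2 units apart. I1a was therefore the weakest member of the high set, while I2 and I3b were close to the floor of the values at 2.387. Scn4b lies at chr9:45138624-45154155 in the RefSeq annotation of GRCm38.p6 and has 1 probe set on the table.

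The start regions of Scn4b and of 3 genes that differed between the sets are shown because these genes moved with or against it: Syt2 and Vamp1 of the release machinery, and Scn2a, a sodium channel alpha subunit with the opposite direction. Each window runs from 250 bases before to 50 bases after a RefSeq transcript start on the plus strand of GRCm38.p6, at chr9:45138374-45138673 for Scn4b, chr1:134646362-134646661 for Syt2, chr6:125215331-125215630 for Vamp1 and chr2:65668436-65668735 for Scn2a. Capitals mark matches on either strand to 4 short motifs, namely the half-site of estrogen-related receptors, AAGGTCA, the GC box, whose letters are GGGCGG, the core promoter motif TATAAA and the E-box, whose letters are CACGTG.
Scn4b: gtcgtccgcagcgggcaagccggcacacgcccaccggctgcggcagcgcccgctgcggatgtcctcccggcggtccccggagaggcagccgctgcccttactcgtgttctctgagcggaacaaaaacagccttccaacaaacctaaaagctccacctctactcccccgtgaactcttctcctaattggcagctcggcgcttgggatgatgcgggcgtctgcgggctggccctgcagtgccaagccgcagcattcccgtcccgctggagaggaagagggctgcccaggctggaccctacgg
Syt2: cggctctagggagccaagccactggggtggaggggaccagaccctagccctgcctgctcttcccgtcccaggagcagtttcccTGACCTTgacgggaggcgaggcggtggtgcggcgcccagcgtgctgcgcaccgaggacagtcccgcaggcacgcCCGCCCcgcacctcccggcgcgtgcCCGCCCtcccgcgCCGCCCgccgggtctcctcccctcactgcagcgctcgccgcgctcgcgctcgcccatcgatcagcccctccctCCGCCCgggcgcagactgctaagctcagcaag
Vamp1: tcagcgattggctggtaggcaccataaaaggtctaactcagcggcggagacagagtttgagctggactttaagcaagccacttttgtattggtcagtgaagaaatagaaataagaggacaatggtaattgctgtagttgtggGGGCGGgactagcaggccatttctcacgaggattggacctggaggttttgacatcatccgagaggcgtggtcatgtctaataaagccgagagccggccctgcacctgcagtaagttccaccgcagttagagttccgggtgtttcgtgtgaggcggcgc
Scn2a: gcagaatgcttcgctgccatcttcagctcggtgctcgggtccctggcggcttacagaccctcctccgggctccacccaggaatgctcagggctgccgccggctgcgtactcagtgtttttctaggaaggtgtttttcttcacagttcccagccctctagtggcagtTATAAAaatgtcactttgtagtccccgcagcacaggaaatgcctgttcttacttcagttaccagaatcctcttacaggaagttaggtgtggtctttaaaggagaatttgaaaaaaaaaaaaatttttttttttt
The Scn4b window holds none of these motifs, the Syt2 window holds 1 match to AAGGTCA and 4 to GGGCGG, the Vamp1 window 1 GGGCGG and the Scn2a window 1 TATAAA. Syt2 and Scn2a have another RefSeq start each, whose windows hold no AAGGTCA and 2 GGGCGG for Syt2 and none of these motifs for Scn2a, and counts over genes take all windows of a gene. The motif AAGGTCA was found in 1 of 8 genes called higher that had a window and in 0 of 12 called lower, against 3.54% of 3587 tested genes with a window. The GC box was found in 8 of 8 and in 10 of 12, against 71.9%. TATAAA occurred in 0 of 8 and 1 of 12, against 9.03%, and CACGTG in 0 of 8 and 2 of 12, against 12.3%. These are matches of letters and not evidence of binding.

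Across the other genes, those called higher in the Scn4b-high pools included the potassium channel subunit gene Kcna1, the neurofilament gene Nefh, the release genes Syt2 and Vamp1 and the synaptic organiser C1ql3, and those called lower included the sodium channel gene Scn2a, the ciliary gene Ahi1 and the progranulin gene Grn. Of 4408 genes tested, 26 (0.59%) were called, where a call needed a Benjamini-Hochberg adjusted p under 0.05 in limma's moderated test with an absolute difference that reached 1 log2 unit. There were 11 genes called higher (0.25%) and 15 called lower (0.34%) in the Scn4b-high pools. Channels and neurofilaments gave 4 of the 26 (Kcna1, Nefh, Scn2a and Cacna2d2) and other genes 22. Overlap is judged on pool means throughout, and for none of the 26 did the pool means of the sets overlap. Over all genes the pool means did not overlap for 759 (17.2%), with 301 higher (6.83%) and 458 lower (10.4%), and a difference of 1 log2 unit or more was seen for 200 higher (4.54%) and 253 lower (5.74%). The median difference of all genes was -0.06 log2 units, and the split of non-overlapping genes moved with the scaling, to 446 higher and 356 lower after quantile normalisation and 434 higher and 367 lower with each array centred on its median. An unadjusted p under 0.05 was found for 800 genes, the called ones included, of which 329 were higher and 471 lower.

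The calls rest on few pools. Without the E1 pool, and again without the I3b pool, 0 genes were called. Without E2 there were 1 higher and 3 lower, without I1b 0 higher and 3 lower, and without I1a 20 higher and 11 lower. Without the I2 pool 8 were higher and 17 lower, and without the I3a pool 12 were higher and 10 lower. Among the 5 inhibitory pools alone (I1a and I1b against I2, I3a and I3b) 0 genes were called, with 344 at an unadjusted p under 0.05. With transmitter class as a term 0 were called, with 418 at an unadjusted p under 0.05. In all of these fits the 26 genes kept their direction, with adjusted p of 0.317 to 0.483 among the inhibitory pools and 0.19 to 0.276 with class as a term. Transmitter class and Scn4b level can therefore be separated only within the inhibitory pools, where no gene passed.

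Of the 26 calls, 4 of the genes called higher (Syt2, Htra1, Tesc and Adap2) and 5 of those called lower (Tmem91, Tpd52l1, Dpy19l1, Plcxd1 and Bex4) had every pool of the other set under 5 and so passed the filter only through the set where they are high. Without them 7 higher and 10 lower calls are left. With values under 5 set to 5, Syt2 differed by 2.39 (adjusted p = 0.0681) and, like Tesc and Adap2, no longer passed, while Tmem91, Tpd52l1, Dpy19l1 and Plcxd1 passed with smaller differences of -2.64, -1.64, -1.45 and -1.78. With the mean of all probe sets per gene 23 of the 26 genes were tested. Of these, Htra1, Nell1 and Pqbp1 differed by 1.97, 1.85 and -0.53 and did not pass (adjusted p = 0.0686, 0.0537 and 0.149). Pkm did not pass with 14 arrays and pools as a random block (adjusted p = 0.136), and Tusc3 did not pass after quantile normalisation or with each array centred on its median (adjusted p = 0.0639 and 0.057).

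**Figure D1:**
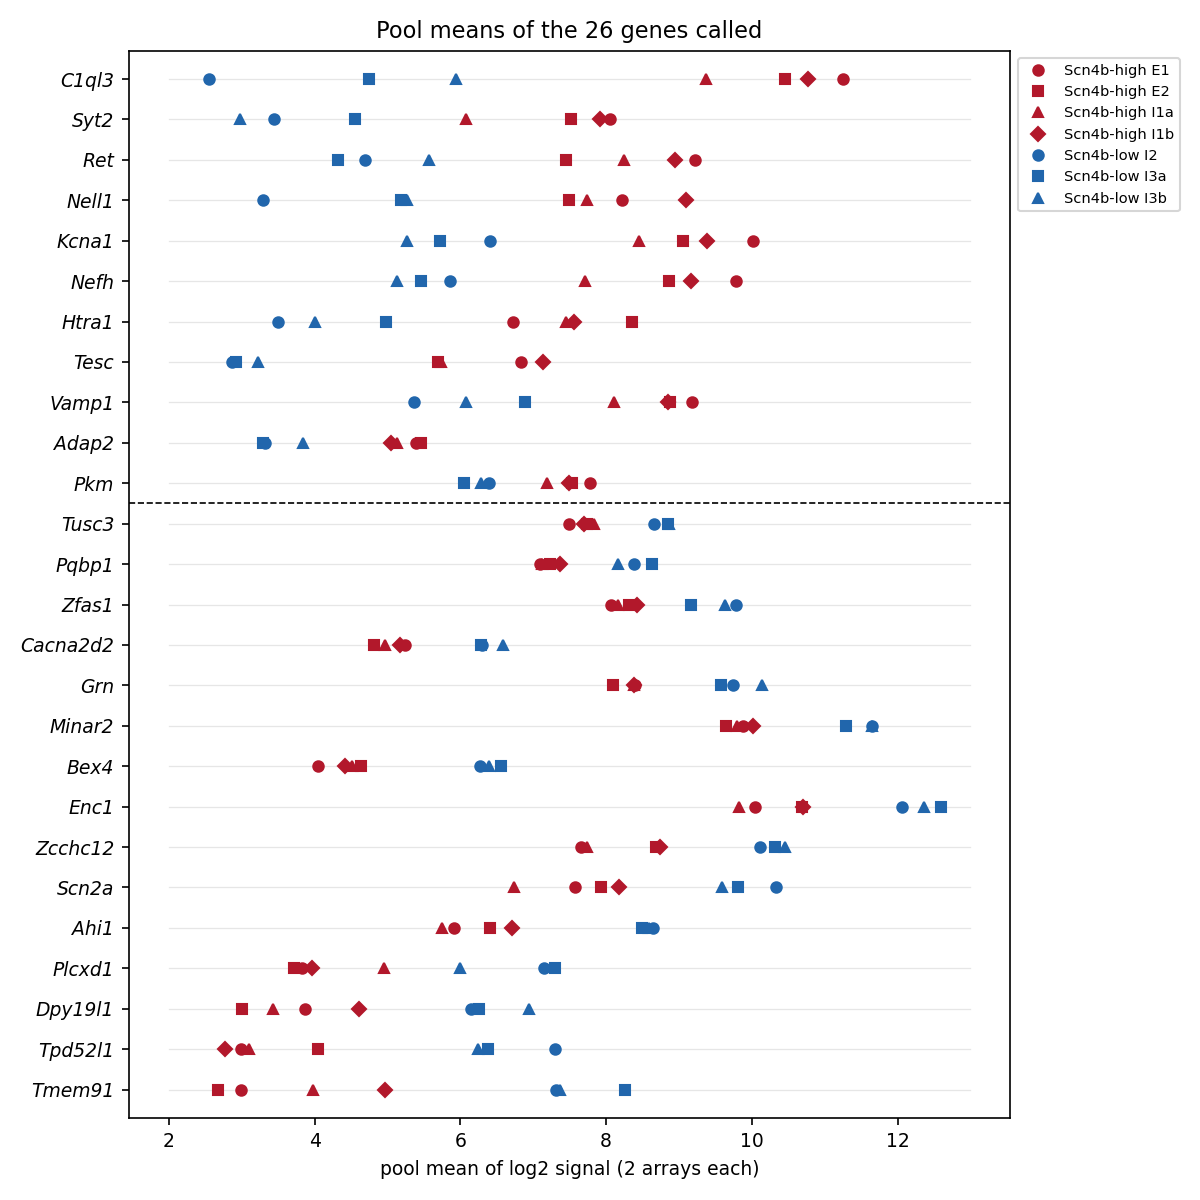
Pool means of log2 signal (2 arrays each, x axis) for the 26 genes called (rows), with Scn4b-high pools in red and Scn4b-low pools in blue and 1 marker shape per pool. The 11 genes above the dashed line are higher and the 15 below it lower in the Scn4b-high pools, and the sets do not overlap in any row.

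Some array controls moved with the sets as well. The bacterial Lys control read 10.49, 10.37, 10.65 and 10.84 in E1, E2, I1a and I1b, against 11.51, 12.003 and 11.64 in I2, I3a and I3b, a difference of -1.13 log2 units without overlap. This was the smallest difference of the Lys probe sets that reached 5. The others differed by -1.35, -1.48, -1.38, -1.66 and -1.40, all without overlap. The Dap control read 4.70, 4.71, 4.57 and 5.09 in the same high pools, against 6.33, 6.14 and 5.86 in the low pools. Its difference was -1.34, and another Dap probe set differed by -1.25, both without overlap. The Phe control overlapped, at 6.19 in I1b and 6.08 in I3a, with a difference of -0.70. The hybridisation controls BioB and BioC overlapped between the sets, with differences of -0.22 and -0.19. When these transcripts were added is not stated, and their part in the gene differences was not tested.

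**Figure D2:**
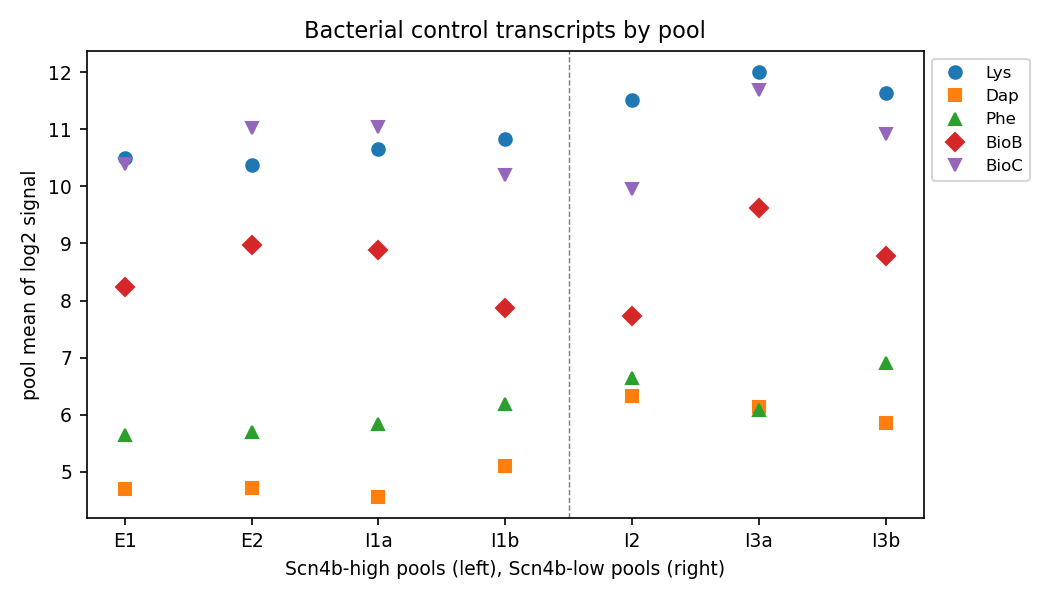
Pool means of log2 signal (y axis) for 5 bacterial control transcripts in the 7 pools (x axis), with the Scn4b-high pools left of the dashed line. Lys and Dap are lower in every Scn4b-high pool than in every Scn4b-low pool, while Phe, BioB and BioC overlap.

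Among the sodium channel genes, the alpha subunit gene Scn2a was lower and no member was called higher. Of 10 sodium channel genes on the list 6 passed the filter on low values, of which 0 were called higher and 1 lower, with a median difference of -1.01 log2 units against -0.06 over all genes. Scn2a, whose product is the alpha subunit of many unmyelinated and immature axons (chr2:65620764-65767447), had log2 signals of 7.57, 7.93, 6.73 and 8.18 in E1, E2, I1a and I1b, against 10.34, 9.81 and 9.59 in I2, I3a and I3b. Every Scn4b-high pool was below every Scn4b-low pool, with I1a lowest. The difference was -2.31 ± 0.36 log2 units (SE, adjusted p = 0.0444). Scn8a, the alpha subunit of mature nodes of Ranvier and of resurgent current in cerebellar neurons, pointed the other way without passing, at 9.65, 9.48, 8.70 and 9.29 in E1, E2, I1a and I1b, against 6.76, 7.82 and 7.64 in I2, I3a and I3b. Its difference was 1.87 ± 0.33 log2 units (SE, adjusted p = 0.058). Scn3b, another beta subunit, had 3.28, 3.65, 3.01 and 4.10 in E1, E2, I1a and I1b, against 5.50, 5.14 and 5.48 in I2, I3a and I3b, a difference of -1.86 ± 0.33 log2 units (SE, adjusted p = 0.0587). Scn3a, the alpha subunit best known from embryonic neurons, had a difference of -1.57 ± 0.44 log2 units (SE, adjusted p = 0.143). All high pools were under 5 for Scn3b and Scn3a, which passed the filter through the low pools alone, and with values under 5 set to 5 their differences were -0.39 and -0.06. The list median of -1.01 includes these genes at their values under 5, so it is not a result about the whole family. Scn1a, another alpha subunit, named after its values were seen, was higher without overlap, at 11.44, 11.20, 10.96 and 11.47 in E1, E2, I1a and I1b, against 10.78, 10.58 and 10.28 in I2, I3a and I3b, and did not pass (difference 0.72 ± 0.18 log2 units, SE, adjusted p = 0.116). Without regard to the test, 2 of the 6 genes were higher and 3 lower without overlap (6.83% and 10.4% over all genes).

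The Fgf homologous factors bind the tails of sodium channel alpha subunits. Of these, 3 passed the filter on low values and 0 were called. Fgf13 had 6.03, 7.27, 6.42 and 8.11 in E1, E2, I1a and I1b, against 10.56, 8.54 and 8.25 in I2, I3a and I3b, a difference of -2.16 ± 0.68 log2 units (SE, adjusted p = 0.173), and Fgf14 differed by -0.69 (adjusted p = 0.192). The pool means of both had no overlap between the sets, and neither passed. Single arrays did overlap for Fgf13, at 8.02 and 8.21 in I1b against 8.10 and 8.40 in I3b. For Fgf14 an I1b array read 6.24 and an I3a array 6.04.

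Kcna1, which encodes a low-threshold potassium channel subunit of axons (chr6:126636463-126645801), was higher in all 4 Scn4b-high pools. Its log2 signal was 10.02, 9.05, 8.46 and 9.39 in E1, E2, I1a and I1b, against 6.40, 5.72 and 5.26 in I2, I3a and I3b. E1 was the highest pool and I1a the lowest of the high set, still above I2. The difference was 3.43 ± 0.41 log2 units (SE, adjusted p = 0.0306). Kcna2, its usual partner in axonal channels, had 9.74, 9.83, 8.72 and 9.81 in E1, E2, I1a and I1b, against 8.07, 8.30 and 7.95 in I2, I3a and I3b, without overlap and without passing (difference 1.42 ± 0.30 log2 units, SE, adjusted p = 0.0776). Kcnc1, a Kv3 subunit that speeds repolarisation, had 10.66, 10.27, 10.46 and 10.80 in E1, E2, I1a and I1b, against 8.59, 9.86 and 9.54 in I2, I3a and I3b and did not pass (difference 1.21 ± 0.31 log2 units, SE, adjusted p = 0.11). Kcnc2, another Kv3 subunit, varied widely within both sets, at 7.97, 6.65, 4.79 and 8.34 in E1, E2, I1a and I1b, against 8.28, 4.58 and 2.41 in I2, I3a and I3b, and overlapped. Over the list of Kv1 and Kv3 channels and Kv1 beta subunits, 9 of 13 passed the filter on low values. Of these, 1 was called higher and 0 lower, and the median difference was 1.09 log2 units. Without overlap 5 were higher and 1 lower (6.83% and 10.4% over all genes).

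Of the other potassium and HCN channels, 11 of 41 passed the filter and 0 were called, with a median difference of 0.32 log2 units. Kcnj3, a G protein-gated inward rectifier subunit, had 9.08, 7.70, 7.33 and 8.39 in E1, E2, I1a and I1b, against 6.38, 4.81 and 6.38 in I2, I3a and I3b. The sets did not overlap, and the difference was 2.27 ± 0.53 log2 units (SE, adjusted p = 0.0918). Kcnt2 was lower without overlap, by -2.36 log2 units (adjusted p = 0.277), and passed the filter through I2 alone, at 7.55. Kcnn2 differed by -1.08 (adjusted p = 0.277) and overlapped. Of the 11 genes 7 were above and 4 below 0. Among calcium channel subunits 5 of 19 passed the filter, and Cacna2d2 was the 1 called. This auxiliary alpha-2-delta subunit had 5.25, 4.82, 4.97 and 5.18 in E1, E2, I1a and I1b, against 6.29, 6.29 and 6.59 in I2, I3a and I3b. The difference was -1.34 ± 0.18 log2 units (SE, adjusted p = 0.0345). The technical SD between arrays of a pool, 0.32, exceeded the SD between pools, 0.20 in the high and 0.17 in the low set. The 2 arrays of E2 read 5.31 and 4.32. Without replicate 1 or without replicate 2 Cacna2d2 did not pass (adjusted p = 0.0777 and 0.0646). Its other probe set lay near the floor in every pool, with a difference of 0.01.

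Among the neurofilament genes, the heavy chain Nefh was called higher and the others did not pass. Neurofilaments are the intermediate filaments that fill large axons. Nefh, the heavy chain (chr11:4938754-4948064), had 9.79, 8.87, 7.71 and 9.16 in E1, E2, I1a and I1b, against 5.85, 5.47 and 5.13 in I2, I3a and I3b. All 4 high pools exceeded the 3 low pools, and I1a was again the lowest of the high set. The difference was 3.40 ± 0.46 log2 units (SE, adjusted p = 0.0345). The medium chain Nefm had 8.68, 7.45, 6.73 and 7.73 in E1, E2, I1a and I1b, against 3.30, 5.22 and 5.42 in I2, I3a and I3b and did not pass (difference 2.999 ± 0.61 log2 units, SE, adjusted p = 0.0727). The light chain Nefl had 11.87, 10.92, 10.74 and 11.02 in E1, E2, I1a and I1b, against 9.58, 9.83 and 10.52 in I2, I3a and I3b, with I3b close to the high set and a difference of 1.16 ± 0.32 log2 units (SE, adjusted p = 0.141). Ina, encoding alpha-internexin, overlapped, with a difference of 0.58. Of 5 listed filament genes 4 passed the filter on low values, 1 was called higher and 0 lower, and the median difference was 2.08 log2 units. Of the 4, 3 were higher without overlap (6.83% over all genes).

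At the axon initial segment and node of Ranvier, 8 of 13 listed genes passed the filter, 0 were called and the median difference was 0.38 log2 units. Epb41l3, a membrane skeleton protein of the paranode, had 9.22, 8.79, 8.07 and 9.07 in E1, E2, I1a and I1b, against 7.05, 7.30 and 7.23 in I2, I3a and I3b without overlap. Its difference was 1.59 ± 0.29 log2 units (SE, adjusted p = 0.0587), just outside the threshold.

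**Figure D3:**
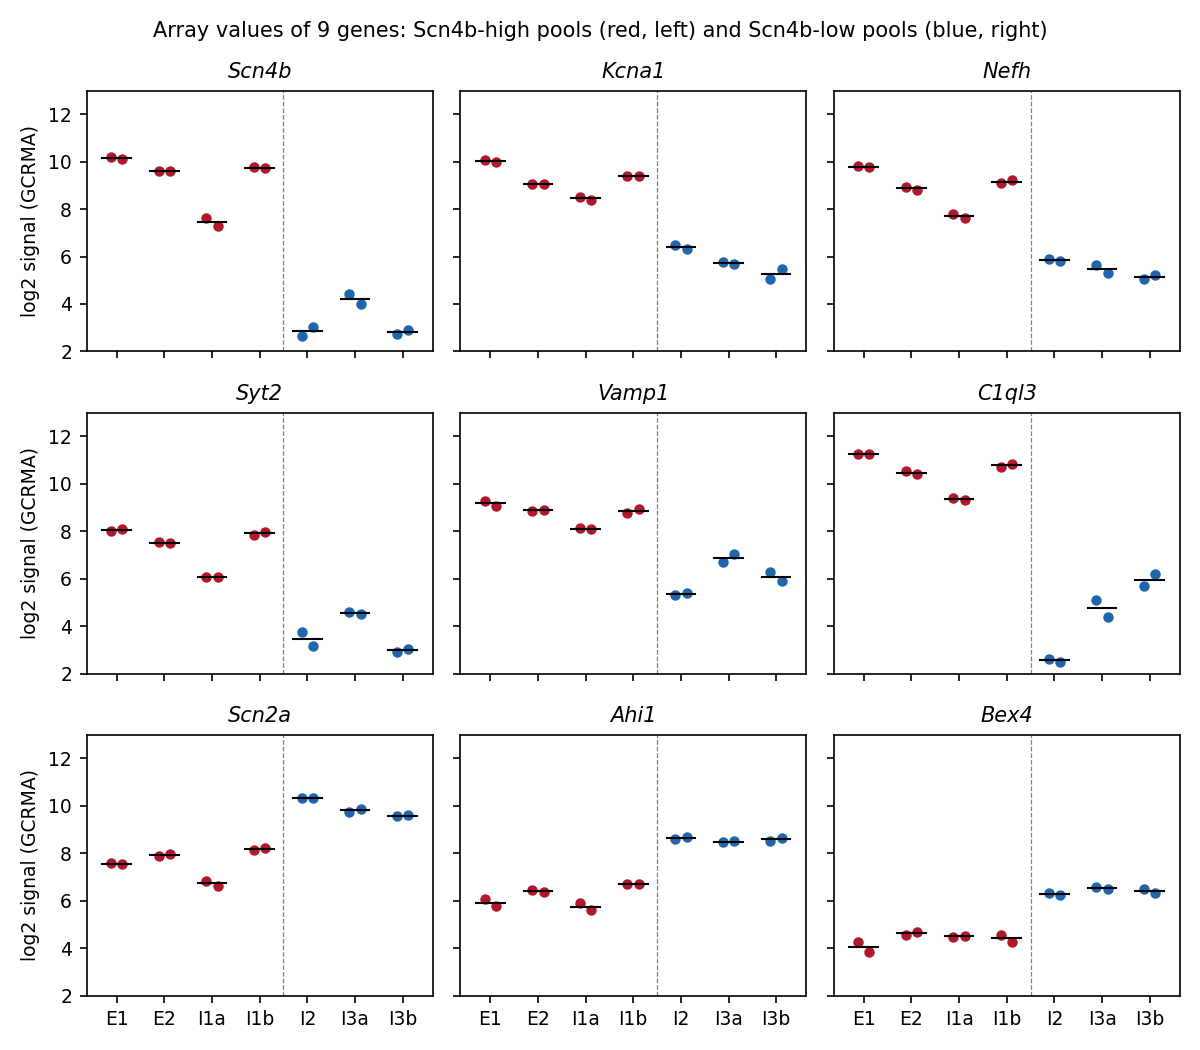
Log2 signal (y axis) of each of the 14 arrays by pool (x axis) for Scn4b and 8 genes called, with a bar at each pool mean, Scn4b-high pools in red at left and Scn4b-low pools in blue at right. The 2 arrays of a pool lie close together, I1a is the lowest Scn4b-high pool for Scn4b, Kcna1, Nefh, Syt2, Vamp1 and C1ql3, and Scn2a, Ahi1 and Bex4 run the other way.

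A pair of release genes was called higher, Syt2 and Vamp1. Syt2 encodes the fast calcium sensor of transmitter release at many hindbrain synapses (chr1:134646534-134753149). Its log2 signal was 8.05, 7.52, 6.08 and 7.91 in E1, E2, I1a and I1b, against 3.44, 4.55 and 2.97 in I2, I3a and I3b. I1a was the lowest high pool and I3a the highest low pool, the same order as for Scn4b. The difference was 3.74 ± 0.55 log2 units (SE, adjusted p = 0.0409), and since all low pools were under 5 the gene passed the filter through the high pools alone. Vamp1, a vesicle SNARE of fast synapses (chr6:125215581-125222306), had 9.17, 8.88, 8.11 and 8.86 in E1, E2, I1a and I1b, against 5.36, 6.88 and 6.08 in I2, I3a and I3b. Its difference was 2.65 ± 0.39 log2 units (SE, adjusted p = 0.0409), with I3a again the highest low pool.

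Other fusion genes differed without passing. Stx1a, a SNARE of the presynaptic membrane, ran the other way at 2.85, 4.37, 6.20 and 4.70 in E1, E2, I1a and I1b, against 6.88, 7.75 and 7.95 in I2, I3a and I3b. No high pool reached the low pools, and E1 was the lowest at near the floor (difference -2.998 ± 0.70 log2 units, SE, adjusted p = 0.0918). Unc13c, a vesicle priming protein, overlapped because I1a was low, at 6.71, 7.44, 4.53 and 7.38 in E1, E2, I1a and I1b, against 3.11, 4.62 and 3.11 in I2, I3a and I3b (difference 2.91 ± 0.75 log2 units, SE, adjusted p = 0.117). Every low pool of Unc13c was under 5, so it passed the filter through high pools alone. Over the fusion and calcium sensor list 17 of 24 passed the filter, 2 were called higher and 0 lower, and the median difference was 0.34 log2 units. Without overlap 4 were higher and 2 lower (6.83% and 10.4% over all genes).

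The vesicle membrane proteins gave no calls and no common direction. Of 19 listed, 14 passed the filter, 0 were called, 7 were above and 7 below 0, and the median difference was 0.00 log2 units. Synpr, the vesicle protein synaptoporin, was lower at 4.12, 7.66, 6.23 and 6.84 in E1, E2, I1a and I1b, against 11.91, 8.96 and 9.81 in I2, I3a and I3b, with I2 highest (difference -4.01 ± 0.94 log2 units, SE, adjusted p = 0.0918). Sv2b, a vesicle glycoprotein, had 5.60, 6.59, 3.97 and 5.82 in E1, E2, I1a and I1b, against 2.65, 2.62 and 2.75 in I2, I3a and I3b (difference 2.82 ± 0.58 log2 units, SE, adjusted p = 0.0727). All low pools lay near the floor, so Sv2b passed the filter through high pools alone. That list also holds the vesicular transporters Slc17a6 and Slc32a1, which mark transmitter class.

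C1ql3 had the largest difference of the 26 genes called. It encodes a secreted C1q-like protein that takes part in forming and keeping synapses (chr2:13001887-13010864). Its log2 signal was 11.25, 10.46, 9.37 and 10.77 in E1, E2, I1a and I1b, against 2.55, 4.75 and 5.95 in I2, I3a and I3b. I1a, at the low end of the high set, was still above I3b, the highest low pool, by over 3 log2 units. The difference was 6.05 ± 0.78 log2 units (SE, adjusted p = 0.0334). Among the inhibitory pools alone it was 5.66 log2 units, with no gene passing there.

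No other synaptic organiser passed. Cbln1, the cerebellin that links presynaptic neurexins to glutamate delta receptors, had 8.87, 8.18, 8.47 and 7.67 in E1, E2, I1a and I1b, against 2.81, 6.79 and 4.34 in I2, I3a and I3b (difference 3.65 ± 0.83 log2 units, SE, adjusted p = 0.0897). I3a was near the high pools, and I2 near the floor. Cbln4, a related cerebellin, overlapped because of I3a, at 7.87, 9.68, 6.63 and 8.08 in E1, E2, I1a and I1b, against 3.80, 7.64 and 3.63 in I2, I3a and I3b (difference 3.04 ± 1.08 log2 units, SE, adjusted p = 0.207). Of 26 organiser genes listed 9 passed the filter, 1 was called higher and 0 lower, 8 were above and 1 below 0, and the median difference was 1.30 log2 units. Without overlap 4 were higher and 0 lower (6.83% and 10.4% over all genes).

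Ret, the receptor kinase of glial cell line-derived neurotrophic factor and its relatives, was called higher. Its log2 signal was 9.23, 7.45, 8.25 and 8.95 in E1, E2, I1a and I1b, against 4.69, 4.32 and 5.57 in I2, I3a and I3b, a difference of 3.61 ± 0.47 log2 units (SE, adjusted p = 0.0334). Here E2 and not I1a was the lowest high pool. Met, the receptor of hepatocyte growth factor, had 5.76, 6.40, 3.88 and 6.28 in E1, E2, I1a and I1b, against 3.17, 2.71 and 2.75 in I2, I3a and I3b and did not pass (difference 2.70 ± 0.61 log2 units, SE, adjusted p = 0.0866). Every low pool of Met was under 5, so it passed the filter through high pools alone. Of 17 trophic receptors and ligands listed 4 passed the filter, 1 was called higher and 0 lower, and the median difference was 2.14 log2 units.

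Several secreted or calcium-binding proteins outside the channel families were also called higher. Nell1, a secreted glycoprotein with thrombospondin-like and EGF-like parts, had 8.22, 7.50, 7.74 and 9.10 in E1, E2, I1a and I1b, against 3.30, 5.19 and 5.27 in I2, I3a and I3b (difference 3.55 ± 0.57 log2 units, SE, adjusted p = 0.0467). Htra1, a secreted serine protease, had 6.72, 8.36, 7.45 and 7.56 in E1, E2, I1a and I1b, against 3.50, 4.98 and 4.01 in I2, I3a and I3b (difference 3.36 ± 0.45 log2 units, SE, adjusted p = 0.0345). For Nell1 the highest pool was I1b and for Htra1 it was E2, so the order within the high set differed from that of Scn4b. Tesc, an EF-hand calcium-binding protein, had 6.83, 5.69, 5.73 and 7.13 in E1, E2, I1a and I1b, against 2.86, 2.92 and 3.22 in I2, I3a and I3b (difference 3.34 ± 0.40 log2 units, SE, adjusted p = 0.0306). Adap2, a GTPase-activating protein for Arf proteins, had 5.40, 5.46, 5.14 and 5.05 in E1, E2, I1a and I1b, against 3.32, 3.29 and 3.84 in I2, I3a and I3b (difference 1.77 ± 0.26 log2 units, SE, adjusted p = 0.0409). In Htra1, Tesc and Adap2 every low pool was under 5, so that they passed the filter through the high pools alone, and the differences of Tesc and Adap2 with values under 5 set to 5 were 1.34 and 0.41 and did not pass (adjusted p = 0.14 and 0.167). For Adap2 the technical spread between the arrays of a pool was the largest of all 26 genes (SD 0.88 log2 units), and with 14 arrays and pools as a random block its adjusted p was 0.314. The I1b arrays of Adap2 read 3.82 and 6.27. Since an I3a array read 4.20 and an I3b array 4.39, single arrays overlapped. Without replicate 1 or without replicate 2 Adap2 did not pass (adjusted p = 0.104 and 0.232).

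Pkm, the pyruvate kinase of the last step of glycolysis, was the smallest of the higher calls. It had 7.78, 7.53, 7.19 and 7.50 in E1, E2, I1a and I1b, against 6.39, 6.05 and 6.28 in I2, I3a and I3b, a difference of 1.26 ± 0.19 log2 units (SE, adjusted p = 0.042). Ldha, the lactate dehydrogenase subunit that favours lactate, had 8.76, 10.92, 8.22 and 10.60 in E1, E2, I1a and I1b, against 12.51, 12.55 and 12.84 in I2, I3a and I3b, lower without overlap and without passing (difference -3.01 ± 0.65 log2 units, SE, adjusted p = 0.0805). Ldhb, the subunit that favours pyruvate, had 12.65, 12.36, 12.70 and 12.43 in E1, E2, I1a and I1b, against 11.90, 12.11 and 11.83 in I2, I3a and I3b and did not pass (difference 0.59 ± 0.12 log2 units, SE, adjusted p = 0.0776). Of 20 glycolysis and lactate genes 13 passed the filter, 1 was called higher and 0 lower, and the median difference was 0.11 log2 units. Of 51 respiratory chain genes 47 passed, 0 were called, 33 were above and 14 below 0, and the median difference was 0.06 log2 units.

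**Figure D4:**
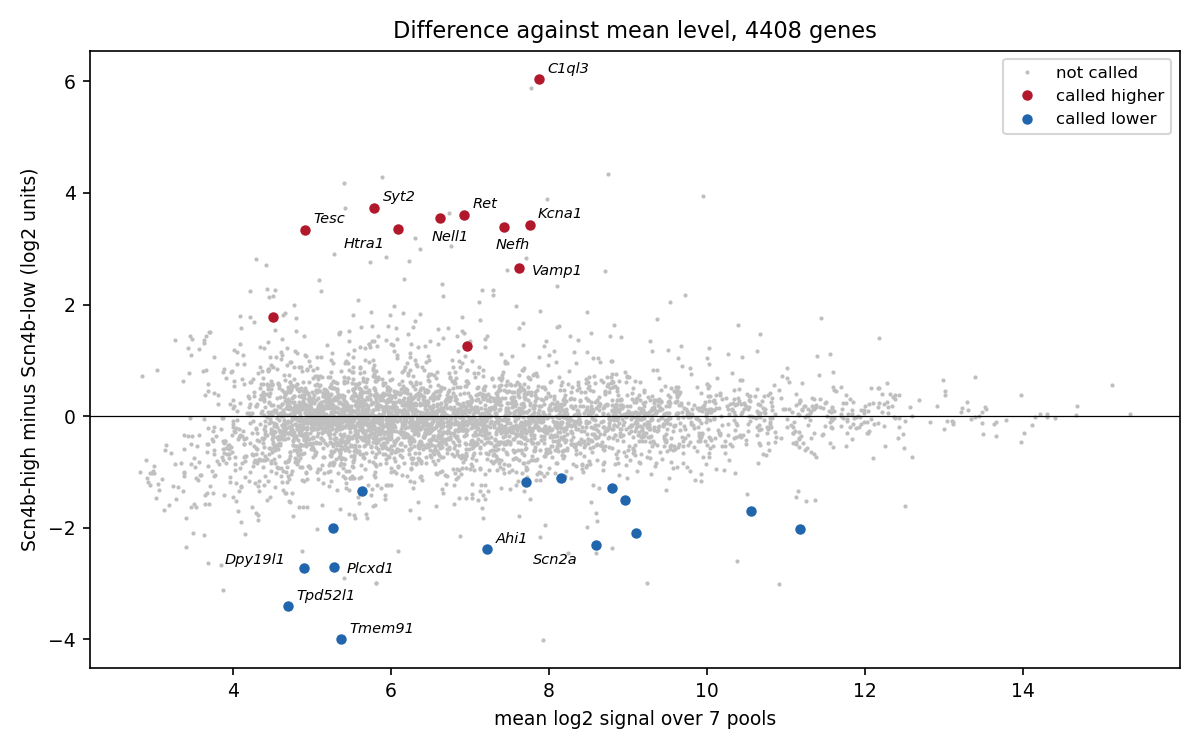
Difference of Scn4b-high minus Scn4b-low pools in log2 units (y axis) against the mean log2 signal over 7 pools (x axis) for 4408 genes, with genes called higher in red, genes called lower in blue and the rest in grey. C1ql3 has the largest difference of the genes called and Tmem91 the lowest, and many uncalled genes have differences as large as the genes called.

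The 15 genes called lower had varied roles. Tmem91, a small transmembrane protein, had 2.99, 2.67, 3.98 and 4.96 in E1, E2, I1a and I1b, against 7.32, 8.26 and 7.37 in I2, I3a and I3b (difference -3.999 ± 0.56 log2 units, SE, adjusted p = 0.0365). Tpd52l1, a member of the tumour protein D52 family of membrane traffic proteins, had 2.99, 4.05, 3.10 and 2.78 in E1, E2, I1a and I1b, against 7.30, 6.38 and 6.25 in I2, I3a and I3b (difference -3.41 ± 0.40 log2 units, SE, adjusted p = 0.0306). In both genes the 4 high pools were under 5 and all low pools above 6. Dpy19l1, of a family of mannosyltransferases, had 3.86, 3.01, 3.43 and 4.61 in E1, E2, I1a and I1b, against 6.15, 6.25 and 6.94 in I2, I3a and I3b (difference -2.72 ± 0.41 log2 units, SE, adjusted p = 0.0411). Plcxd1, a protein with a phospholipase C domain, had 3.83, 3.72, 4.95 and 3.96 in E1, E2, I1a and I1b, against 7.15, 7.30 and 6.000 in I2, I3a and I3b (difference -2.70 ± 0.42 log2 units, SE, adjusted p = 0.0441). These 4 genes and Bex4 had every high pool under 5, so they passed the filter through the low pools alone.

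Ahi1, the ciliary protein jouberin (chr10:20952232-21080429), was lower by an amount that varied little between low pools. It had 5.92, 6.41, 5.75 and 6.71 in E1, E2, I1a and I1b, against 8.64, 8.50 and 8.60 in I2, I3a and I3b, a difference of -2.38 ± 0.25 log2 units (SE, adjusted p = 0.0255). Bex4, a brain-expressed X-linked gene, had 4.05, 4.63, 4.51 and 4.41 in E1, E2, I1a and I1b, against 6.27, 6.56 and 6.40 in I2, I3a and I3b (difference -2.01 ± 0.20 log2 units, SE, adjusted p = 0.0255), and its probe set may share sequence with other Bex genes, which are close copies. Minar2, a membrane protein named for its association with a Notch receptor, had 9.88, 9.65, 9.80 and 10.01 in E1, E2, I1a and I1b, against 11.65, 11.29 and 11.66 in I2, I3a and I3b (difference -1.70 ± 0.16 log2 units, SE, adjusted p = 0.0255). For Minar2 the SD was 0.15 log2 units among the high pools and 0.21 among the low pools, small beside its difference. Enc1, an actin-binding kelch protein, had 10.04, 10.69, 9.83 and 10.70 in E1, E2, I1a and I1b, against 12.06, 12.60 and 12.36 in I2, I3a and I3b (difference -2.03 ± 0.26 log2 units, SE, adjusted p = 0.0334). Grn, the lysosomal protein progranulin, had 8.39, 8.09, 8.39 and 8.38 in E1, E2, I1a and I1b, against 9.75, 9.58 and 10.14 in I2, I3a and I3b (difference -1.51 ± 0.19 log2 units, SE, adjusted p = 0.0334). Both lay well above the floor in all 7 pools.

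Zcchc12, a zinc finger cofactor of bone morphogenetic protein signalling, had 7.66, 8.69, 7.74 and 8.74 in E1, E2, I1a and I1b, against 10.11, 10.32 and 10.46 in I2, I3a and I3b (difference -2.09 ± 0.32 log2 units, SE, adjusted p = 0.042). Zfas1, a non-coding RNA that hosts small nucleolar RNAs, had 8.06, 8.31, 8.17 and 8.42 in E1, E2, I1a and I1b, against 9.79, 9.16 and 9.64 in I2, I3a and I3b (difference -1.29 ± 0.20 log2 units, SE, adjusted p = 0.0444). Pqbp1, a splicing-related protein, had 7.10, 7.23, 7.13 and 7.37 in E1, E2, I1a and I1b, against 8.38, 8.63 and 8.17 in I2, I3a and I3b (difference -1.19 ± 0.18 log2 units, SE, adjusted p = 0.0409). These 3 genes were expressed in both sets and differed by about 1 to 2 log2 units. Tusc3, a subunit of the oligosaccharyltransferase complex, was the remaining call, named after its values were seen, with a difference of -1.10 ± 0.16 log2 units (SE, adjusted p = 0.0409). Its pool means were 7.49, 7.73, 7.83 and 7.69 in E1, E2, I1a and I1b, against 8.65, 8.85 and 8.86 in I2, I3a and I3b.

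The calcium-binding proteins gave large differences and no call. Of 19 listed, 9 passed the filter, 0 were called, and the median difference was 1.27 log2 units. Without overlap 3 were higher and 0 lower (6.83% and 10.4% over all genes). Pcp4, a calmodulin-binding peptide, had 11.23, 10.78, 10.01 and 10.41 in E1, E2, I1a and I1b, against 3.18, 9.94 and 5.66 in I2, I3a and I3b. I3a was almost level with I1a, and the low pools spread widely (difference 4.35 ± 1.36 log2 units, SE, adjusted p = 0.174). Single arrays of Pcp4 overlapped, at 10.18 and 9.84 in I1a against 9.76 and 10.12 in I3a. Caln1, a relative of calmodulin, had 9.76, 10.07, 9.34 and 9.41 in E1, E2, I1a and I1b, against 3.78, 7.67 and 5.80 in I2, I3a and I3b (difference 3.89 ± 0.79 log2 units, SE, adjusted p = 0.0723). Pvalb, the calcium buffer parvalbumin, a common marker of fast-spiking neurons, had 8.65, 7.49, 9.05 and 7.99 in E1, E2, I1a and I1b, against 3.65, 8.34 and 8.17 in I2, I3a and I3b. Only I2 stood below the rest, and the sets overlapped (difference 1.57 ± 1.10 log2 units, SE, adjusted p = 0.494). Among pumps and exchangers 9 of 20 passed the filter, 0 were called, 9 of 9 were above 0, and the median difference was 0.33 log2 units. Slc24a2, a potassium-dependent sodium and calcium exchanger, had 9.06, 9.53, 7.96 and 9.15 in E1, E2, I1a and I1b, against 4.08, 7.86 and 6.35 in I2, I3a and I3b (difference 2.83 ± 0.82 log2 units, SE, adjusted p = 0.152). Atp2b2, a plasma membrane calcium pump, had 7.37, 6.88, 6.57 and 7.04 in E1, E2, I1a and I1b, against 5.29, 6.20 and 5.62 in I2, I3a and I3b (difference 1.26 ± 0.28 log2 units, SE, adjusted p = 0.0805). Atp1b1, the beta subunit of the sodium pump, had 13.34, 13.34, 12.87 and 13.28 in E1, E2, I1a and I1b, against 12.85, 12.68 and 12.74 in I2, I3a and I3b (difference 0.45 ± 0.13 log2 units, SE, adjusted p = 0.154). The pool means of the last 3 genes did not overlap between the sets, and none passed. Single arrays did overlap for Slc24a2, at 8.11 and 7.80 in I1a against 7.68 and 8.05 in I3a. They also did for Atp1b1, at 12.89 and 12.84 in I1a against 12.81 and 12.90 in I2.

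Surface and guidance genes added no call. Pcdh8, a protocadherin, had 8.56, 6.50, 6.28 and 9.53 in E1, E2, I1a and I1b, against 2.93, 4.32 and 3.04 in I2, I3a and I3b (difference 4.28 ± 0.83 log2 units, SE, adjusted p = 0.0655). Every low pool of Pcdh8 was under 5, so it passed the filter on low values through the high pools alone. Thy1, a glycolipid-anchored surface protein, had 12.46, 12.11, 10.30 and 11.71 in E1, E2, I1a and I1b, against 6.57, 9.62 and 6.91 in I2, I3a and I3b (difference 3.95 ± 0.80 log2 units, SE, adjusted p = 0.0723). The YFP-16 reporter carries Thy1 sequence, and whether the probe set reads it was not tested. Of 41 adhesion genes 21 passed the filter, 0 were called, and the median difference was 0.13 log2 units. Without overlap 3 were higher and 1 lower (6.83% and 10.4% over all genes). Sema3e, a secreted semaphorin, had 7.46, 6.91, 8.75 and 7.99 in E1, E2, I1a and I1b, against 11.09, 9.44 and 9.92 in I2, I3a and I3b (difference -2.37 ± 0.52 log2 units, SE, adjusted p = 0.0815). Unc5c, a netrin receptor, had 4.88, 6.13, 5.28 and 4.86 in E1, E2, I1a and I1b, against 6.42, 6.68 and 7.25 in I2, I3a and I3b (difference -1.49 ± 0.36 log2 units, SE, adjusted p = 0.0951). Of 41 axon guidance genes 17 passed the filter, 0 were called, and the median difference was -0.40 log2 units. Without overlap 0 were higher and 3 lower (6.83% and 10.4% over all genes). Among 33 tubulin and axonal transport genes 20 passed, 0 were called and the median difference was 0.15 log2 units. Without overlap 4 were higher and 2 lower (6.83% and 10.4% over all genes). Basp1, Marcks and Tubb2b were lower, by -1.73, -1.35 and -1.12 log2 units (adjusted p = 0.146, 0.235 and 0.241), and of these only Basp1 had no overlap. Tuba4a, an adult alpha-tubulin, had 11.74, 12.42, 11.90 and 12.11 in E1, E2, I1a and I1b, against 10.27, 11.50 and 11.01 in I2, I3a and I3b (difference 1.12 ± 0.29 log2 units, SE, adjusted p = 0.122).

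The transcription factor, neuropeptide and receptor lists held no called gene. Of 70 transcription factors 20 passed the filter, 0 were called, and the median difference was -0.34 log2 units. Without overlap 0 were higher and 2 lower (6.83% and 10.4% over all genes). Pbx3, a homeodomain factor, had 7.75, 8.96, 5.93 and 8.04 in E1, E2, I1a and I1b, against 2.60, 7.27 and 3.56 in I2, I3a and I3b, and Zic1, a zinc finger factor of dorsal hindbrain, differed by 2.78 (adjusted p = 0.447). Both overlapped between the sets. Of 26 neuropeptide and granin genes 14 passed, 0 were called and the median difference was -0.64 log2 units. Crhbp, which binds corticotropin-releasing hormone, had 2.58, 2.99, 2.62 and 2.62 in E1, E2, I1a and I1b, against 2.57, 5.29 and 8.27 in I2, I3a and I3b and overlapped. Every high pool of Crhbp was under 5, so it passed the filter through I3a and I3b alone. The median differences were -0.01 for 6 peptide and monoamine receptors, 0.05 for 5 ionotropic glutamate receptors, -0.02 for 8 GABA-A and glycine receptors and -0.27 for 16 G protein signalling genes, all with 0 called. The lists of perineuronal net (4 tested, median 0.39), heat shock (12 tested, median 0.04) and immediate early genes (3 tested, median -0.19) also had 0 called.

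**Figure D5:**
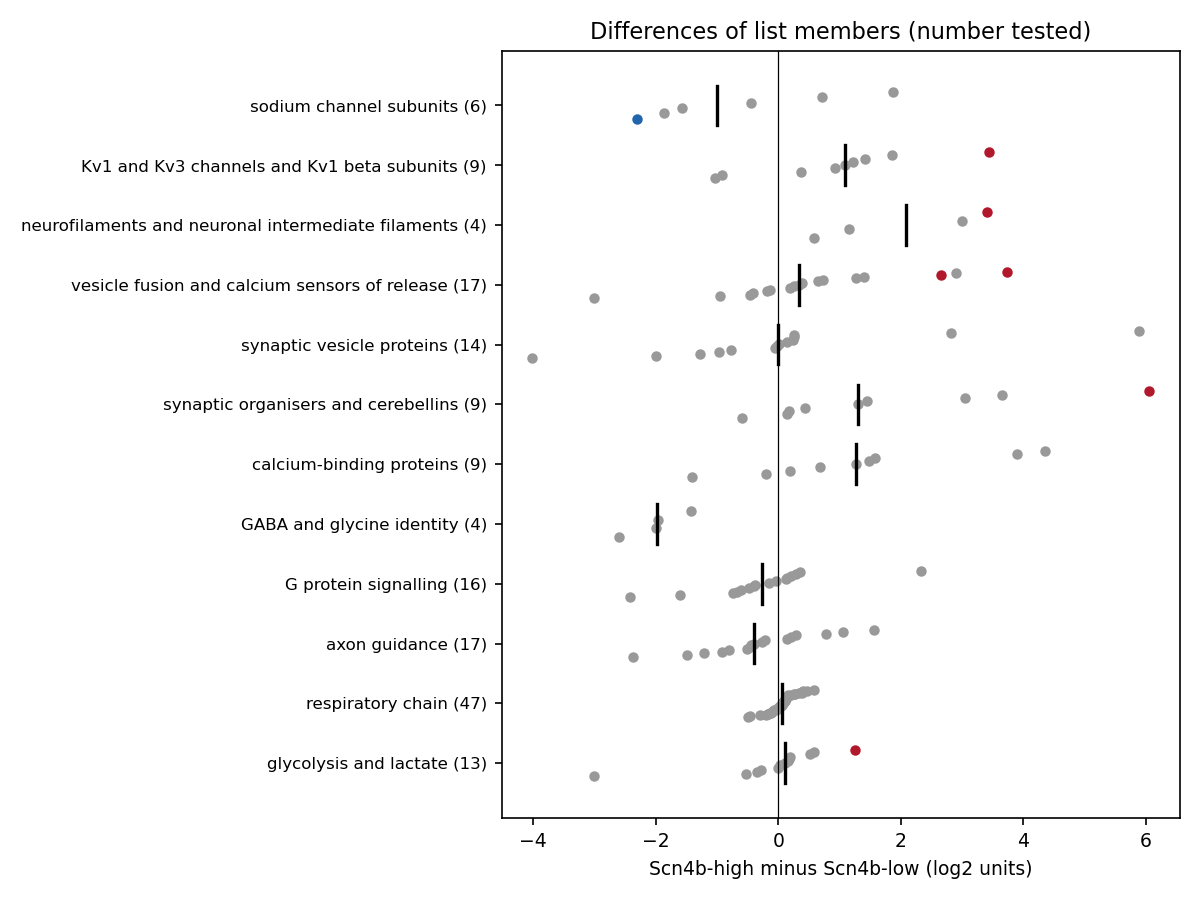
Difference of Scn4b-high minus Scn4b-low pools in log2 units (x axis) for the tested members of 12 gene lists (rows, number tested in brackets), with called genes in colour, others in grey and a bar at each list's median. Neurofilament genes lie above 0, GABA and glycine identity genes below it, and most other lists hold members on both sides.

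No transmitter gene was called. Slc17a6, the vesicular glutamate transporter gene that marks excitatory neurons here, had 11.11, 10.98, 8.60 and 10.48 in E1, E2, I1a and I1b, against 3.11, 6.93 and 3.19 in I2, I3a and I3b. It was high in I1b and I1a as well as in E1 and E2, and I3a lay above the other low pools. The difference was 5.88 ± 1.02 log2 units (SE, adjusted p = 0.058), outside the threshold, and among the inhibitory pools alone it was 5.13 log2 units. In an inhibitory type this gene goes against the label as a marker, and I1b read within 1 log2 unit of E1 and E2. Gad1, which encodes an enzyme of GABA synthesis, had 7.80, 6.80, 11.71 and 10.75 in E1, E2, I1a and I1b, against 12.38, 10.86 and 12.36 in I2, I3a and I3b. Gad2, its second form, had 5.72, 6.43, 8.41 and 7.92 in E1, E2, I1a and I1b, against 8.90, 8.99 and 9.33 in I2, I3a and I3b. E1 and E2 were lowest for both, as in their labels, yet not at the floor. Slc32a1, which loads GABA and glycine into vesicles, had 6.60, 5.41, 9.32 and 9.20 in E1, E2, I1a and I1b, against 9.76, 9.54 and 9.57 in I2, I3a and I3b. Slc6a5, the glycine transporter of glycinergic terminals, had 6.31, 3.33, 8.41 and 8.17 in E1, E2, I1a and I1b, against 7.93, 8.47 and 7.53 in I2, I3a and I3b. Of these 4 inhibitory genes 0 were called, 2 were lower without overlap (10.4% over all genes), and the median difference was -1.97 log2 units. Their differences were -2.60, -1.96, -1.99 and -1.42 with adjusted p of 0.293, 0.181, 0.312 and 0.557. In pooled cells, fewer cells expressing a gene and less RNA per cell cannot be told apart.

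Neuronal genes were present in every pool, and markers of other cells were low. Snap25, a neuronal SNARE, had 13.39, 13.25, 12.90 and 13.57 in E1, E2, I1a and I1b, against 12.40, 12.66 and 12.81 in I2, I3a and I3b, and Map2, a dendritic protein, averaged 9.40 ± 0.21 in the high pools and 9.05 ± 0.11 in the low pools (SD, n = 4 and 3). Rbfox3, the neuronal splicing factor NeuN, had 10.45, 10.78, 8.55 and 9.48 in E1, E2, I1a and I1b, against 7.91, 8.37 and 5.39 in I2, I3a and I3b, lowest in I3b (difference 2.59 ± 0.80 log2 units, SE, adjusted p = 0.17). All 6 astrocyte markers were under 5 in every pool, and their summed signal was 4.98 to 5.02 in the Scn4b-high pools and 4.98 to 5.50 in the Scn4b-low pools on the log2 scale. All 3 microglia, 2 endothelial and 3 Purkinje cell markers measured were under 5 in every pool too. Their summed signals were 3.97 to 4.06, 3.39 to 3.54 and 4.01 to 4.15 in the high pools, against 3.97, 3.39 and 4.01 to 4.09 in the low pools. For the 2 oligodendrocyte precursor markers they were 3.40 to 4.28 in high pools and 3.39 to 3.51 in low pools, and for the 1 blood marker 2.39 to 2.43 and 2.39 to 2.47.

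The exceptions were myelin genes and a granule cell marker. Of 5 oligodendrocyte markers measured, 3 were under 5 everywhere, and the summed signal was 5.77 to 7.33 in the high pools and 5.42 to 9.35 in the low pools. Mbp, myelin basic protein, had 2.68, 2.94, 2.43 and 5.50 in E1, E2, I1a and I1b, against 2.47, 6.20 and 3.43 in I2, I3a and I3b, and Cnp, a myelin enzyme, had 5.27, 5.49, 4.93 and 6.62 in E1, E2, I1a and I1b, against 4.25, 9.14 and 5.14 in I2, I3a and I3b. I3a and I1b, 1 pool of each set, stood above the others for both. Among 3 granule cell markers the sum was 5.84 to 7.31 in high pools and 4.33 to 8.49 in low pools. Gabra6 and Slc17a7 were under 3 in every pool, so the sum reflects Neurod1, which is also on the transcription factor list. Neurod1 had 5.54, 6.85, 7.21 and 5.54 in E1, E2, I1a and I1b, against 3.11, 8.30 and 8.44 in I2, I3a and I3b. The part of these signals in the gene differences was not tested. Without I1b and I3a together 0 genes were called, with 744 at an unadjusted p under 0.05. The 26 genes kept their direction in that fit, as those tested did in every alternative.

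The sets were not uniform. Pool means correlated at 0.941 to 0.964 for the 6 pairs of Scn4b-high pools, 0.866 to 0.947 for the 3 pairs of Scn4b-low pools and 0.855 to 0.936 for the 12 pairs of 1 high and 1 low pool, over 4408 genes that are not independent replicates. Among the high pools, I1a had the highest correlation with I3b (0.936) and with I3a (0.926), and I1b the highest with I2 (0.879). I1a was the lowest high pool for 6 of the 11 genes called higher. Among all 301 genes higher without overlap it was lowest for 152 (50.5%), against 43.6% of all genes tested. I1b was the highest high pool for 9 of the 15 genes called lower and for 193 of the 458 genes lower without overlap (42.1%), against 33.9% of all genes tested. Within the high set, the excitatory pools minus I1a and I1b differed by -0.56 to 0.89 log2 units over the genes called higher and by -1.64 to 0.58 over the genes called lower. For 9 of the 26 genes the table holds 11 other probe sets, of which 3 reached 5 (for Enc1, Grn and Minar2), all without overlap in the same direction. The rest were under 5 in every pool. Those of Adap2, Cacna2d2, Minar2 and Pqbp1 differed by -0.005, 0.01, 0.07 and 0.12, against the direction of the call. Those of Grn, Htra1, Nell1 and Tesc differed by -0.38, 0.59, 0.15 and 0.03, in its direction.

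Over the 7 pools, the genes whose level was most like that of Scn4b by Pearson's r included Syt2 (0.994), Epb41l3 (0.984), Ahcyl1 (0.984), Vamp1 (0.982), Nefh (0.979), Kcna2 (0.975), Mrpl20 (0.975), Gprc5b (0.974), Ankrd35 (0.973) and Slc17a6 (0.972). The lowest was Sez6 at -0.989, a membrane protein of dendrites that had 4.40, 4.41, 5.36 and 4.71 in E1, E2, I1a and I1b, against 6.55, 6.05 and 6.81 in I2, I3a and I3b. Its difference was -1.75 ± 0.30 log2 units (SE, adjusted p = 0.058). These correlations describe 7 points that fall into 2 sets chosen by Scn4b, and they share the arrays and the normalisation. Ahcyl1, a regulator of inositol trisphosphate receptors, differed by 0.97, Gprc5b, an orphan receptor, by 1.08, and Ankrd35 by 1.51, all higher without overlap and none passing. Mrpl20 differed by only 0.38 (adjusted p = 0.271), with pool means of 4.99 to 5.46 and a technical SD of 0.37. A high r here can therefore go with a small difference. Every low pool of Ankrd35 was under 5, so it passed the filter through the high pools alone. With values under 5 set to 5, Ankrd35 differed by 0.99. With the mean of all probe sets per gene, Gprc5b differed by 0.09 (adjusted p = 0.84).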

How the data were processed

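Single-neuron cDNA was amplified by the authors and used to classify the cells, and the cDNA of a type was combined into 1 pool and labelled for Affymetrix arrays, per the labels. The authors deposited log2 signals made with affy and GCRMA, per the submitters' processing notes, a method that corrects background, normalises between arrays and summarises probe sets. Versions, and whether probe sets were left out before, are not given in the sources used here, and the log base was read from the values (a floor of 2.387 and a maximum of 15.9). Precision is limited by the number of pools, and on each array 15.1% to 16.4% of probe sets reached 5. Arrays of 1 pool correlated at 0.981 to 0.992, and arrays of different pools at 0.848 to 0.96.

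The table holds 30843 probe sets, of which 24034 have 1 gene symbol in the platform annotation, 477 several and 6268 none, and 64 are controls. Symbols were updated through Entrez identifiers to RefSeq of GRCm38.p6 (23883 matched). For 16244 genes the 1-symbol probe set with the highest mean stood for the gene, and 4409 genes (27.1%) with a pool mean of 5 or more in at least 1 pool were kept. Scn4b was removed and 4408 genes were fitted with lmFit and eBayes (intensity trend) in limma 3.58.1 under R 4.3.3, on the means of 7 pools with 5 residual degrees of freedom. Differences are Scn4b-high minus Scn4b-low. P-values measure the spread between pools, and whether pools came from separate mice is not stated. A gene was called where its adjusted p was under 0.05 and its absolute difference reached 1 log2 unit. The code was tested on simulated data.

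The text names, in each direction, the 12 called genes that differed most, filled up by size from genes without overlap, the same again without channels and neurofilaments, up to 4 genes per list and the genes most and least like Scn4b. There are 38 lists with 701 entries, of which 585 are on the table and 325 were kept, and some genes stand on several lists. The comparison, its members and the lists were chosen with earlier results of these data known. Alternatives covered the filter, probe set choice, scaling, the floor, the trend, pool as a random block, transmitter class, and leaving out pools or technical replicates. Sequences are RefSeq's. Figures used matplotlib 3.10.9 and pandas 2.3.3.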

Additional observations from a re-analysis of the deposited data

Results flagged for a closer look

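For 78 genes the 4 Scn4b-high pools were checked for a pool far from the other 3, with Dixon's ratio of the gap to the range above its usual critical value, which chance gives in about 1 of 20 sets. This marked 6 genes. I1a stood below the other high pools for Kcna2, a potassium channel subunit, at 8.72 against 9.74 to 9.83, for Ina, encoding alpha-internexin, at 5.70 against 6.90 to 6.94, and for Atp1b1, the sodium pump beta subunit, at 12.87 against 13.28 to 13.34. E2 stood apart for Grn, encoding progranulin, at 8.09 against 8.38 to 8.39, and for Crhbp, which binds corticotropin-releasing hormone, at 2.99 against 2.58 to 2.62, where all 4 values are near the floor. I1b stood apart for Mbp, myelin basic protein, at 5.50 against 2.43 to 2.94. The Scn4b-low set of 3 pools is too small for this check.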

How the results depend on the processing

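Each choice was changed by itself, and in every alternative the tested members of the 26 calls kept their direction. The counts moved, and the cause was not tested. With a filter at 7, 29 genes were higher and 34 lower (21 of the 26 called), and with no filter on low values, where 16243 genes were tested, 0 higher and 0 lower (1175 at an unadjusted p under 0.05). Quantile normalisation gave 19 higher and 15 lower, arrays centred on their median 20 and 17, and values under 5 set to 5 gave 19 and 23. With all 14 arrays and pools as a random block 102 were higher and 90 lower, and with the replicate block added 87 and 82. The correlation of same-numbered deviations was over 0.1 for 4 of 21 pool pairs (range -0.12 to 0.21). These values do not settle whether replicate numbers pair the pools. Leaving out 1 pool or 1 technical replicate in turn gave 0 to 20 higher and 0 to 17 lower. The inhibitory pools alone, class as a term, and leaving out I1b and I3a together each gave 0 higher and 0 lower. The mean of all probe sets (8 higher, 13 lower) and no intensity trend (11 and 17) moved the counts less.

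Of 77 genes in 21 alternatives, 279 results were no longer past the threshold, 104 were newly past it and 5 turned direction, all uncalled. Slc6a5 became 0.32 among the inhibitory pools and with class as a term. Without I3a, Cnp became 0.88 and Mbp 0.44 (lowest values, without I2, -1.56 for Cnp and -1.43 for Mbp), and without both I1b and I3a, Cnp became 0.54. The number of pools limits the precision.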
